A study of Mus musculus with 60 samples.

Results

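The AP-1 and immediate early factors are 10 mouse genes, chosen by symbol and matched to the Ensembl identifiers of the counts table: Jun, Junb and Jund of the Jun family, Fos, Fosb and Fosl2 of the Fos family, and Egr1, Atf3, Ier2 and Nr4a1. All 10 were among the 52636 genes of the table, and all 10 passed the filter on low counts in each of the 6 tissues, so 60 combinations of gene and tissue were tested. On GRCm38, by the GENCODE vM21 annotation, Jun (ENSMUSG00000052684) lies at chr4:95049034-95052222, Junb (ENSMUSG00000052837) at chr8:84974484-84978718 and Jund (ENSMUSG00000071076) at chr8:70698949-70700616. Fos (ENSMUSG00000021250) lies at chr12:85473890-85477273, Fosb (ENSMUSG00000003545) at chr7:19302696-19310051 and Fosl2 (ENSMUSG00000029135) at chr5:32135801-32157842. Egr1 (ENSMUSG00000038418) lies at chr18:34859823-34864984, Atf3 (ENSMUSG00000026628) at chr1:191170296-191218039, Ier2 (ENSMUSG00000053560) at chr8:84661331-84662852 and Nr4a1 (ENSMUSG00000023034) at chr15:101254269-101274795. All 10 are protein-coding.

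RNA of kidney, liver, lung, skeletal muscle, skin and spleen was measured by total RNA sequencing in 60 libraries. The 4F mice (4F het and R26::rtTA het, on C57BL/6) carry 1 copy of a cassette of the reprogramming factors Oct4, Sox2, Klf4 and c-Myc, and the transactivator rtTA at R26, which doxycycline activates. Each tissue had 3 libraries of 4F mice given 1 mg/ml doxycycline in weekly cycles of 2 days on and 5 days off, for 10 months between the ages of 12 and 22 months, and 3 libraries of untreated 4F mice aged 22 months that carry the same 2 transgenes. Each of these arms held 1 male and 2 females. Each tissue also had 2 libraries of male C57BL/6 mice with no cassette, called B6 here, that had doxycycline for 5 months between 20 and 25 months of age, and 2 of untreated B6 males, aged 25 months in the labels and 26 months in the series text. The series text gives the B6 arms as the control for doxycycline itself. The 5 months are those of the series text, whereas the labels' protocol names 10 months without setting B6 apart and words the B6 treatment as an induction of 4F. The 4F and B6 arms thus differ in length of treatment, age and sex as well as in the 2 transgenes. The interval from the last doxycycline day to sampling is not given in the sources used here. Each 4F arm holds both sexes and so more than 1 animal, but the labels do not state that every library of an arm comes from its own animal, so the p-values measure the spread between these samples, which may in part be technical.

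Library totals ran from 18517963 to 43176392 counts. A level is given in CPM, the share of a library's counts on the usual scale, with library sizes adjusted by the trimmed mean of M-values (TMM) within each tissue. The summed level of 5 marker genes of the labelled tissue was at least 12397 CPM in every library of kidney, liver, lung and skeletal muscle. Skin libraries held 415 to 13257 CPM of 5 epidermis markers beside 32577 to 92588 CPM of 5 skeletal muscle markers, and spleen libraries held 471 to 3716 CPM of 5 B cell markers. 6 untreated libraries stood apart by the summed level of 5 markers of another tissue or cell type. Among 4F libraries these were skin replicate 1 (kidney tubule markers, 4109 CPM), skeletal muscle replicate 3 (macrophage, 1919 CPM), lung replicate 2 (skeletal muscle, 3463 CPM), and spleen replicate 2 (pancreas acinar, 1681 CPM). Among B6 libraries they were liver replicate 2 (macrophage, 3793 CPM) and spleen replicate 2 (neutrophil, 13469 CPM). In such bulk samples, fewer cells of a type and less RNA per cell cannot be told apart.

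Immediate early genes are transcribed within minutes of a signal, without new protein synthesis, once kinases of the MAP kinase and calcium pathways act on factors that already sit at their promoters, such as SRF and CREB. AP-1 is a dimer of basic leucine zipper proteins: Jun proteins can pair with each other or with Fos proteins, while Fos proteins need a Jun partner to bind DNA. Egr1 and Nr4a1 are DNA-binding factors of other families, and Atf3 is a leucine zipper protein that can pair with Jun proteins. The transcripts are short-lived, and feedback proteins such as the Dusp phosphatases and the mRNA-decay factor Zfp36 end the response. The genes are known to respond to injury and to tissue handling as well as to growth factors.

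The promoters are shown because several members varied together from library to library, as given further on. A link between promoter letters and this co-variation was not tested. RefSeq on GRCm38.p6 held a promoter for 8 of the 10 members, all but Egr1 and Ier2. The 250 bases before each RefSeq start were searched on both strands, except for the TATA box, which was searched on the gene's strand. A RefSeq start can differ from the GENCODE one. For Jund the stretch ended at chr8:70697738, whereas the GENCODE gene starts at chr8:70698949, so it does not adjoin that start. The letters TGACG, the core of the cyclic AMP response element bound by CREB and Atf factors, were present in 5 of 8 (Junb, Fos, Fosb, Atf3 and Nr4a1), against 17.8% of all 32841 promoters. TGACATCA, the variant AP-1 site described in the Jun promoter, was present in Jun alone among the 8, against 2.93% of all promoters, and TATAAA was present in Fos alone, against 7.59%. The CArG box bound by SRF, the full elements TGACGTCA and TGACTCA and the Egr1 site GCGTGGGCG were in none of the 8, against 1.47%, 1.55%, 4.46% and 0.536% of all promoters, which says only that these letters are not in this window. TGACG was added to the search after these promoters had been read, and it overlaps TGACGTCA. The stretches below are the 120 bases before the start, 5′ to 3′ on the gene's strand, and capitals mark the motifs, CGTCA being TGACG read on the other strand. They lie at chr12:85473770-85473889 on the plus strand for Fos, chr7:19310046-19310165 on the minus strand for Fosb, chr8:84978749-84978868 on the minus strand for Junb, chr4:95052223-95052342 on the minus strand for Jun, chr1:191183334-191183453 on the minus strand for Atf3 and chr15:101266726-101266845 on the plus strand for Nr4a1.
Fos: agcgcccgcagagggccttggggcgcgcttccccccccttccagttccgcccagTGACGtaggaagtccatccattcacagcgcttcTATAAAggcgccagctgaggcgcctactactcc
Fosb: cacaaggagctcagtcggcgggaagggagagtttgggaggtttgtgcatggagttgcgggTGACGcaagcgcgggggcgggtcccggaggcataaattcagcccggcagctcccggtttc
Junb: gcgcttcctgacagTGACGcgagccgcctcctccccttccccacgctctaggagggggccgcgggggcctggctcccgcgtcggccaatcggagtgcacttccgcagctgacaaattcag
Jun: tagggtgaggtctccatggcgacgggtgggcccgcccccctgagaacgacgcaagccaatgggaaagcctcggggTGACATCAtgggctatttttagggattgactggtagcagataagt
Atf3: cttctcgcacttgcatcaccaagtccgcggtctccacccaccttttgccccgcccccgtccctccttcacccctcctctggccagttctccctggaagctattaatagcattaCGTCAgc
Nr4a1: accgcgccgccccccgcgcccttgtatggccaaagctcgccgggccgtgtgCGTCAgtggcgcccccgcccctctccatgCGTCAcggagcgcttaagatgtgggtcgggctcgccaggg

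Levels differed strongly between tissues, and skin had the highest mean level of Fos, Fosb, Egr1, Atf3 and Ier2. Tissue pairs were compared in 1 edgeR fit of the 60 libraries, with arm and sex in the model. Of the 150 comparisons of a member between 2 tissues, 90 passed an adjusted p of 0.05, a share below the 70.4% of all genes and pairs tested, from 5 of 15 pairs for Jund to 12 of 15 for Nr4a1. Libraries of different tissues may share mice, which the labels do not say, and the fit treats them as independent.

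In the Jun family, Jun held 263 ± 56.2 CPM in lung and 252 ± 89.3 CPM in skin (SD, n = 10 libraries here and below), then 105 ± 39.5 CPM in skeletal muscle, 97.1 ± 51.8 CPM in kidney, 62.4 ± 32.8 CPM in liver and 59.8 ± 26.9 CPM in spleen. Of the 5 neighbouring steps in that order, edgeR called 2, skeletal muscle over kidney (log2 difference 1.03 ± 0.26, SE, adjusted p 0.000346) and liver over spleen (0.95 ± 0.26, adjusted p 0.000824), and lung and skin did not differ beyond their spread (edgeR adjusted p 0.162). In both steps called the CPM ranges of the tissues overlapped and the means lay close, and the log2 difference is that of the 60-library fit, which is scaled across tissues. Junb, a Jun relative that activates more weakly in many settings, held 149 ± 75.5 CPM in spleen, 148 ± 106 CPM in skin, 132 ± 61.7 CPM in lung, 106 ± 57.4 CPM in liver, 80.1 ± 70.2 CPM in kidney and 27.7 ± 18.3 CPM in skeletal muscle. For Junb the only neighbouring step called was liver over kidney (1.30 ± 0.35, edgeR adjusted p 0.001). Jund, a member known for steady expression in most cells, held 134 ± 40.7 CPM in lung, 118 ± 50.9 CPM in spleen, 109 ± 50.6 CPM in kidney, 101 ± 47.1 CPM in skin and 77.9 ± 16.4 CPM in liver. It was lower in skeletal muscle, at 22.3 ± 5.40 CPM, and liver over skeletal muscle was its only neighbouring step called (1.73 ± 0.25, edgeR adjusted p 2.54e-08) and the only one of all 10 members in which no library of the lower tissue reached the higher one.

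Fos and Fosb were highest in skin by a wide margin. The lowest, median and highest of the 10 skin libraries held 84.7, 712 and 1564 CPM of Fos and 20.6, 197 and 803 CPM of Fosb, so skin libraries differed widely among themselves. Fos held 722 ± 522 CPM in skin, 130.4 ± 47.8 CPM in lung, 52.5 ± 40.8 CPM in skeletal muscle, 50.8 ± 35.5 CPM in spleen, 49.3 ± 49.02 CPM in kidney and 21.4 ± 20.4 CPM in liver. Skin over lung was called (2.91 ± 0.45, edgeR adjusted p 1.15e-07), and so was skeletal muscle over spleen (1.12 ± 0.42, edgeR adjusted p 0.0143), again with close CPM means. Lung and skeletal muscle, spleen and kidney, and kidney and liver did not differ beyond their spread. Fosb held 297 ± 279.5 CPM in skin and far less elsewhere: 7.10 ± 9.87 CPM in skeletal muscle, 6.61 ± 1.51 CPM in lung, 3.02 ± 3.05 CPM in kidney, 2.55 ± 1.40 CPM in spleen and 0.941 ± 0.646 CPM in liver. Its step from skin to skeletal muscle was the largest neighbouring difference of any member (4.93 ± 0.65, edgeR adjusted p 7.14e-09), and none of its other 4 steps was called. Fosl2, also called Fra-2, a Fos relative without the strong activation domain of Fos, held 135 ± 42.2 CPM in lung and 117 ± 59.1 CPM in skin, against 41.5 ± 7.79 CPM in spleen, 41.04 ± 16.97 CPM in kidney, 24.1 ± 8.55 CPM in skeletal muscle and 22.2 ± 11.9 CPM in liver. Only skin over spleen was called for Fosl2 (1.90 ± 0.23, edgeR adjusted p 2.96e-10).

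In kidney, the lowest, median and highest libraries held 24.2, 106 and 789 CPM of Egr1, a zinc finger factor of GC-rich sites. Its mean levels were 469 ± 310.1 CPM in skin, 205 ± 257 CPM in kidney, 151 ± 180.3 CPM in spleen, 70.5 ± 18.5 CPM in lung, 64.8 ± 48.2 CPM in liver and 50.3 ± 55.3 CPM in skeletal muscle. Skin over kidney was its only step called (1.78 ± 0.50, edgeR adjusted p 0.00174). Atf3, a stress-induced leucine zipper factor that represses as a homodimer, held 159 ± 131 CPM in skin, 23.5 ± 11.8 CPM in lung, 22.4 ± 29.5 CPM in skeletal muscle and 6.76 to 9.40 CPM on average in kidney, liver and spleen. Its steps from skin to lung (3.12 ± 0.49, edgeR adjusted p 2.27e-07) and from skeletal muscle to spleen (2.23 ± 0.48, edgeR adjusted p 4.45e-05) were called. Ier2, a nuclear protein of the immediate early response family, held 103 ± 55.4 CPM in skin, 89.6 ± 28.1 CPM in lung, 82.8 ± 45.6 CPM in spleen, 54.02 ± 18.4 CPM in liver, 40.98 ± 34.6 CPM in kidney and 14.2 ± 9.86 CPM in skeletal muscle. Liver over kidney was its only step called (1.29 ± 0.32, edgeR adjusted p 0.000448). Nr4a1, the orphan nuclear receptor Nur77, had another order and was highest in skeletal muscle, at 278 ± 113 CPM. By mean CPM, Junb, Jund, Egr1 and Ier2 were lowest there. Nr4a1 held 252 ± 116 CPM in skin, 168 ± 125 CPM in lung, 87.01 ± 28.1 CPM in spleen, 48.8 ± 38.8 CPM in kidney and 18.7 ± 12.5 CPM in liver. Skin over lung (1.20 ± 0.35, edgeR adjusted p 0.00227) and lung over spleen (0.78 ± 0.34, edgeR adjusted p 0.0429) were called. CPM were scaled within a tissue and the fit was scaled across tissues, so tissues can stand in another order in the fit. This held for neighbours with close means, such as lung and skin for Jun (-0.39 ± 0.25 for lung minus skin). It also held for tissues further apart. Liver minus spleen was 0.55 ± 0.34 for Junb (edgeR adjusted p 0.139). Lung minus skeletal muscle was -0.18 ± 0.49 for Egr1 (edgeR adjusted p 0.737). The orders given here are those of mean CPM.

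Per kilobase of exon, the leading member differed by tissue: Jund in kidney (65.5 CPM per kb), liver (46.7) and spleen (70.6), Jun in lung (82.5), Nr4a1 in skeletal muscle (79.2) and Fos in skin (307). Fosb was the lowest of the 10 per kilobase in kidney, liver, lung, skeletal muscle and spleen, at 0.151 CPM per kb in liver, and Fosl2 was the lowest in skin (12.1). Members also differed in how far libraries of a tissue lay apart. From the lowest to the highest library of a tissue, Fosb spanned 1.96-fold in lung to 39.04-fold in skin, Egr1 2.09-fold in lung to 32.5-fold in kidney and Fos 2.84-fold in lung to 18.5-fold in skin. Jund spanned 2.03-fold in liver to 4.43-fold in skin, Fosl2 1.62-fold in spleen to 4.93-fold in skin and Jun 2.29-fold in lung to 4.99-fold in liver. In lung, Fosb and Egr1 were thus narrower than Jun or Jund, the latter at 2.46-fold.

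**Figure D1:**
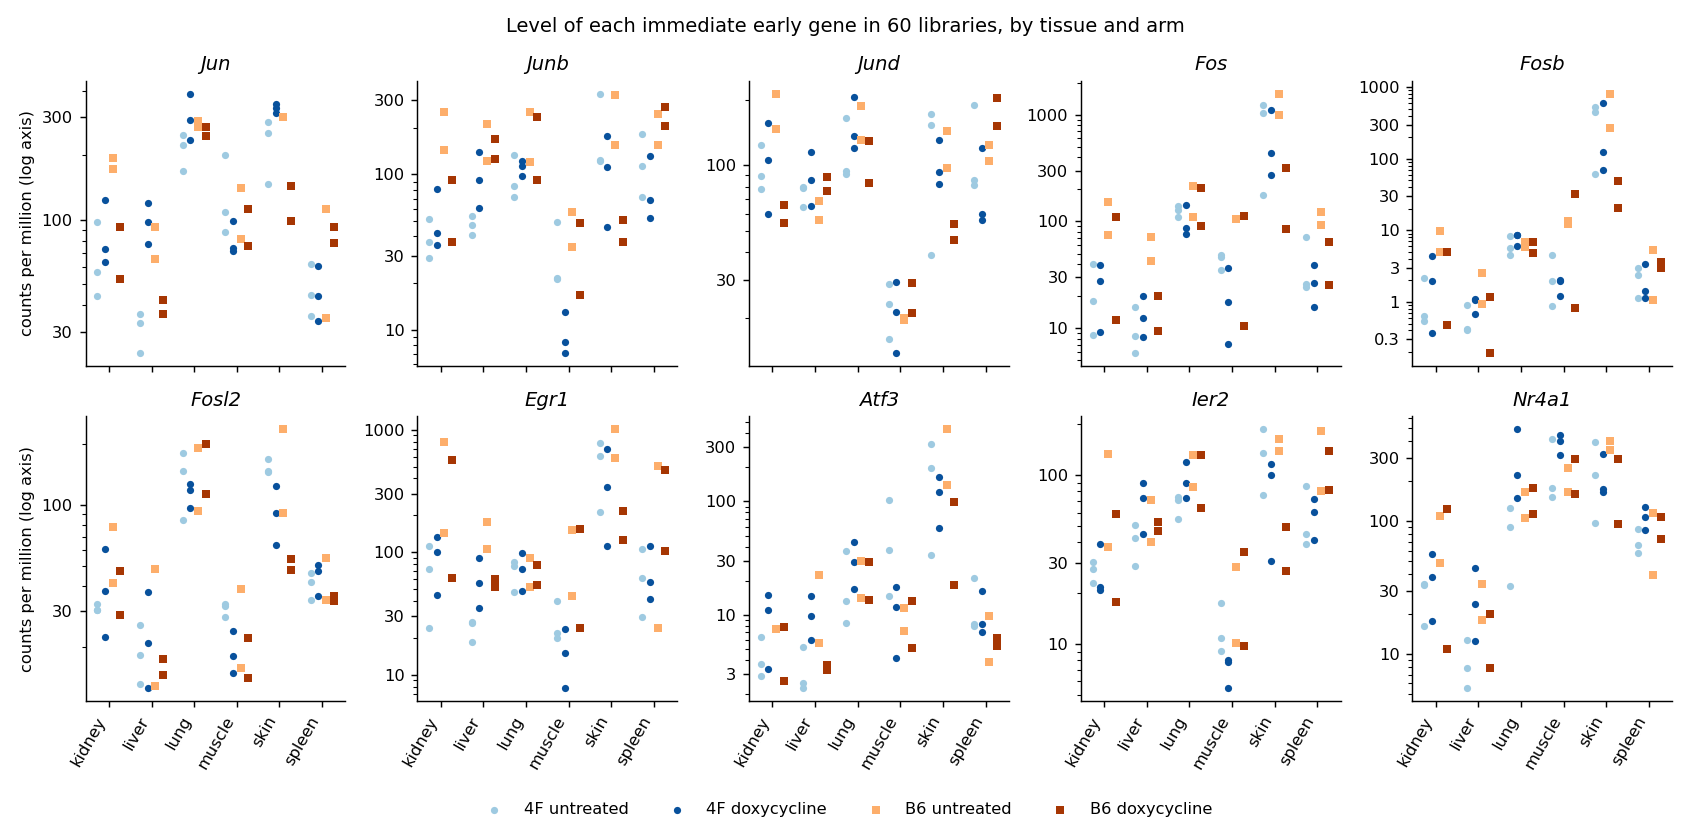
Level of each of the 10 genes in the 60 libraries (vertical axis, CPM on a log scale), by tissue (horizontal axis); each point is 1 library, circles are 4F and squares are B6, and darker points are doxycycline-treated. Fos, Fosb, Egr1 and Atf3 stand highest in skin, Nr4a1 in skeletal muscle, and Fosb spans 39.04-fold within skin.

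The members were compared library by library after the mean of each arm had been removed from log2 CPM. Mean differences between tissues, treatments and genotypes thus do not set the pattern. Sex was neither removed nor held fixed in the test below. The arms of mice with the cassette hold both sexes, so sex may add to the pattern. The 2 libraries of a B6 arm deviate from their mean by equal and opposite amounts. An r over 10 libraries therefore rests on fewer than 10 independent deviations. Within a tissue, Fos was set against the other 9 members over 10 libraries, 54 relations in all, with an exact two-sided permutation test within arms whose smallest possible p is 0.00694. 47 of 54 correlations were above 0. Over the 60 libraries together, 7792 of the 14101 other genes had an r above 0 with Fos, while the share within a tissue was not computed. 12 relations had an unadjusted exact permutation p under 0.05 by Pearson's r and 11 by Spearman's rho. None passed after Benjamini-Hochberg adjustment over the 54 (lowest adjusted p 0.125). Given the smallest possible p, no relation could pass unless many others stood about as low. Failing this adjustment therefore does not show a lack of co-variation.

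Egr1 went with Fos most closely in kidney, with Pearson r 0.943 (exact permutation p = 0.00694, adjusted 0.125) and Spearman rho 0.915 (exact permutation p = 0.0208, adjusted 0.188), and r was 0.90 without the 2 libraries farthest from the median of Fos. In skin the same pair had Pearson r 0.901 (exact permutation p = 0.00694, adjusted 0.125) and Spearman rho 0.964 (exact permutation p = 0.00694, adjusted 0.15), with 0.851 without the 2 farthest libraries. Its r was 0.84 in skeletal muscle, 0.29 in liver, 0.26 in spleen and -0.50 in lung, so lung stood the other way. Fosb and Fos in skin had Pearson r 0.948 (exact permutation p = 0.0139, adjusted 0.188) and Spearman rho 0.903 (exact permutation p = 0.0139, adjusted 0.15), with 0.914 without the 2 farthest libraries. The r of this pair was 0.87 in kidney, 0.75 in skeletal muscle, 0.14 in liver, 0.018 in lung and 0.045 in spleen. Without the 2 farthest libraries it was 0.78 in kidney but 0.04 in skeletal muscle. Atf3 was the only member whose r with Fos was above 0.7 in 5 of the 6 tissues, at 0.86 in kidney, 0.86 in skin, 0.80 in liver, 0.73 in lung and 0.71 in spleen, with skeletal muscle at 0.16. The liver value of Atf3 rested on Pearson r 0.805 (exact permutation p = 0.00694, adjusted 0.125) and Spearman rho 0.818 (exact permutation p = 0.00694, adjusted 0.15), and on 0.693 without the 2 farthest libraries. Jund went against Fos in 4 tissues, with r from -0.58 in spleen to -0.21 in skeletal muscle, and was at 0.24 in liver and 0.43 in lung.

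Over the 60 libraries, genes tested in all 6 tissues were ranked by their Pearson r with each member; r is a description here, as libraries of a tissue share handling and depth. Of the 14101 other genes, Fosb ranked 1 for likeness to Fos (r 0.69), Egr1 4 (0.65), Atf3 5 (0.64), Nr4a1 6 (0.60), Ier2 13 (0.51), Junb 26 (0.48) and Fosl2 63 (0.44). Jun came at rank 194 (r 0.38) and Jund at 12914 (r -0.27). Once predicted, clone and pseudogene names were left out, the 10 genes most like Fos held Fosb, Egr1, Atf3, Nr4a1, Ier2 and 5 genes outside the members. These 5 were Dusp1 (r 0.69), a phosphatase that switches off MAP kinases, Btg2 (0.68), an antiproliferative early response gene, Zfp36 (0.54), which triggers decay of short-lived mRNA, and Slc15a2 and Leo1. Ranked from each member in turn, the median rank of the other 9 was 8 for Fosb, 12 for Ier2, 13 for Fos, 13 for Nr4a1, 23 for Junb and 26 for Egr1, all near the top of the 14101. It was 633 for Jun, 1286 for Atf3, 4658 for Fosl2 and 6325 for Jund. The genes most like Jun were Ccn1 (r 0.73), a matrix-associated early gene, Smad7 (0.69), a feedback inhibitor of TGF-β signalling, and Rhob (0.65), a small GTPase. Those most like Fosl2 were Nfkbiz (0.77), an NF-κB cofactor, and Il1r2 (0.75), the decoy receptor of interleukin 1. Those most like Atf3 were Evl (0.67) and the leucine zipper gene Batf (0.66). Over the 45 pairs of members the median r was 0.44 over the 60 libraries, and by tissue it ran from 0.29 in liver to 0.59 in kidney.

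**Figure D2:**
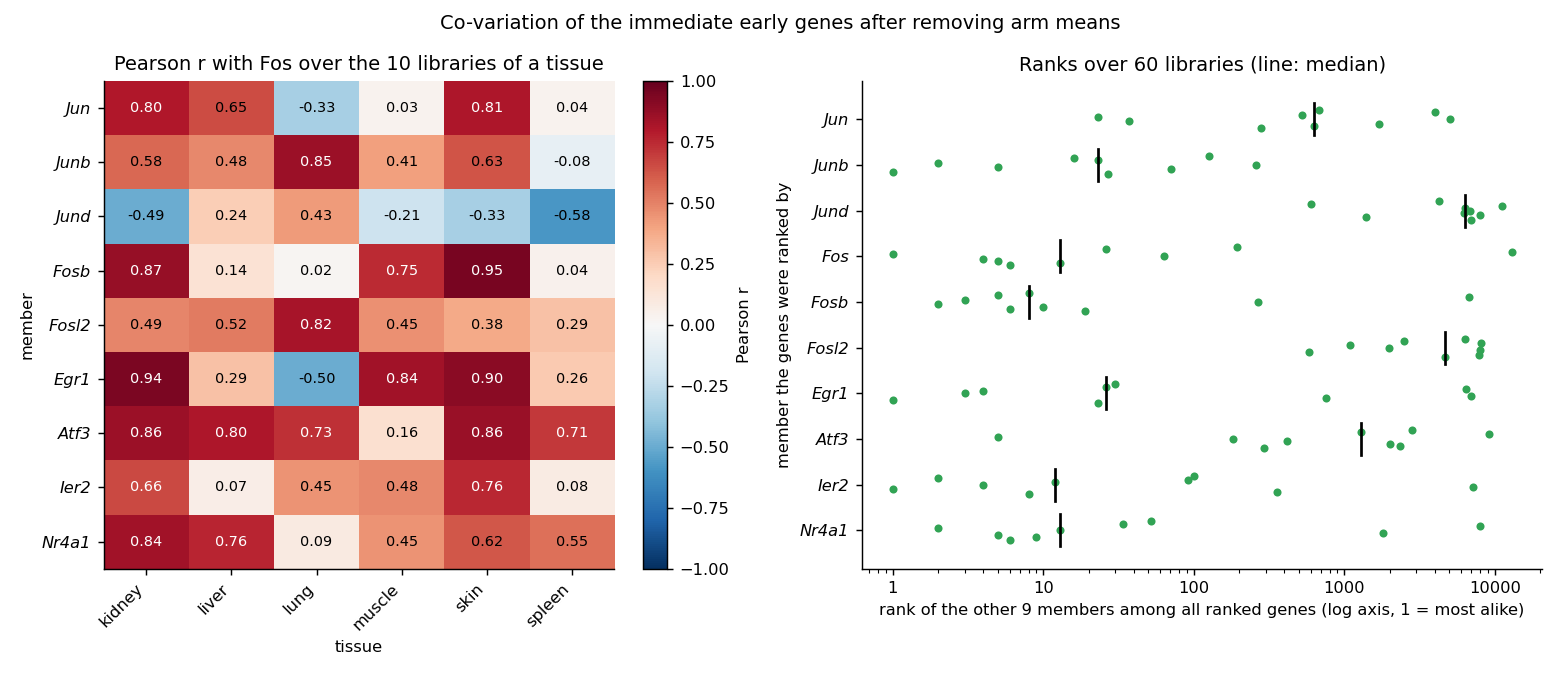
Left, Pearson r of each member (vertical axis) with Fos over the 10 libraries of each tissue (horizontal axis), after removing arm means; red is positive and blue negative. Right, rank of the other 9 members among 14101 genes by likeness to each member over the 60 libraries (horizontal log axis, each point a member, line the median of the 9): the median is 8 for Fosb and 6325 for Jund.

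Jund, and to a lesser degree Fos in the other direction, moved with a property of the libraries. A GC index, added after the values had been seen, gave for each library the mean log2 deviation of the 10% of genes with the most GC-rich transcripts minus that of the 10% with the most GC-poor ones. The Jund transcript is 67.1% G and C, the highest of the members, and its r with the index over the 60 libraries was 0.66, higher than for 98.7% of genes. Fos, at 51.9% G and C, had -0.38. The 10 genes most like Jund, led by Scand1 (r 0.89), Ccdc85b (0.85) and Pgls (0.84), had a median GC content of 63.8%, against 49.7% for all genes ranked and 54% for the 10 most like Fos. With the index regressed out of every gene, the ranks by likeness to Fos were 1 for Fosb, 4 for Egr1, 5 for Atf3, 6 for Nr4a1, 7 for Ier2, 8 for Junb, 19 for Fosl2, 119 for Jun and 8280 for Jund, each the same as or nearer the top than before.

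**Figure D3:**
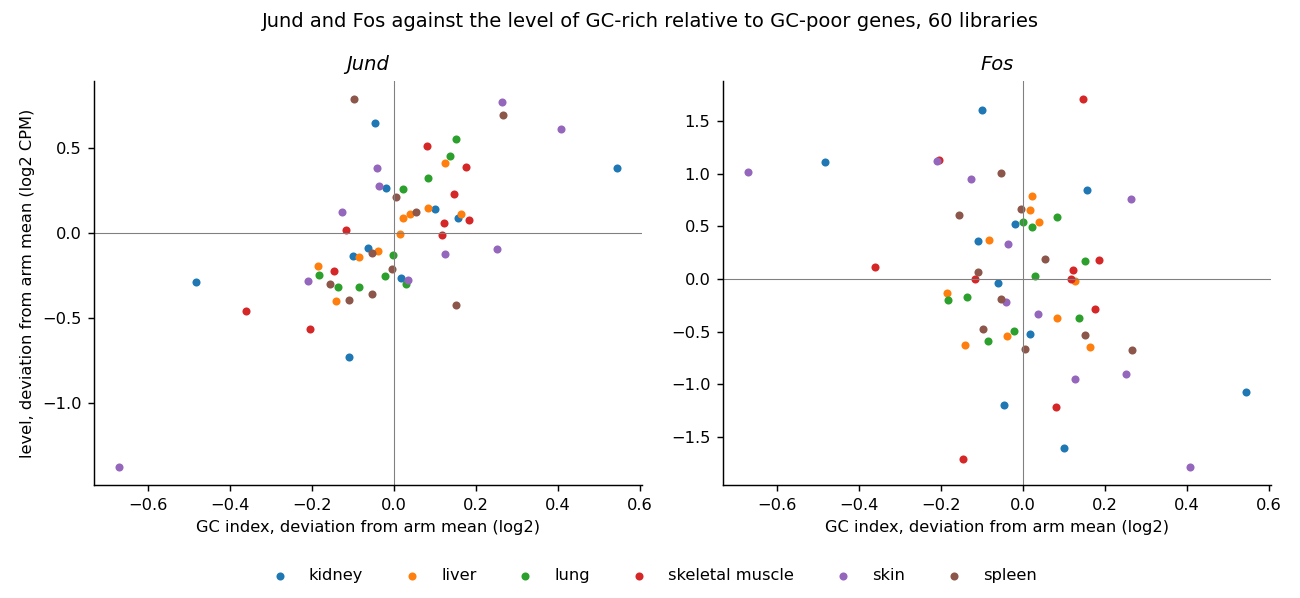
Deviation of Jund (left) and Fos (right) from its arm mean (vertical axis, log2 CPM) against that of the GC index (horizontal axis, log2) in the 60 libraries, coloured by tissue. Jund follows the index (r 0.66) and Fos leans the other way (r -0.38).

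Doxycycline effects were tested within each tissue by edgeR's quasi-likelihood test with sex in the model, in 4F, in B6 and for the difference of these effects. The difference shares its libraries with the other 2 contrasts. None of the 60 combinations of member and tissue passed edgeR's adjusted p of 0.05 in any of the 3 contrasts, against 0.000932% of all gene and tissue combinations in 4F, 0% in B6 and 0% for the difference. At an unadjusted p under 0.05 edgeR gave 11 of 60 in 4F, 15 in B6 and 15 for the difference, against 6.46%, 5.55% and 4.68% of all combinations. DESeq2, run as an alternative, called Jun in liver in 4F, Jund in kidney and Fosb and Junb in skin in B6, and Jun and Egr1 in liver for the difference, against 0.562%, 0.249% and 0.147% of all combinations it tested. The fitted effects were above 0 in 34 of 60 combinations in 4F and in 13 of 60 in B6. The values below are therefore levels and differences that did not pass the test across all genes, apart from those DESeq2 called. Leaving out 1 library changed the count in 2 cases, without untreated B6 liver replicate 1 and without untreated B6 spleen replicate 1. Each of these fits left 1 untreated B6 library, the macrophage-rich liver replicate 2 or the neutrophil-rich spleen replicate 2. Their calls are therefore not given. A value with ± after a member's levels is its fitted log2 fold change, treated against untreated, with its standard error.

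**Figure D4:**
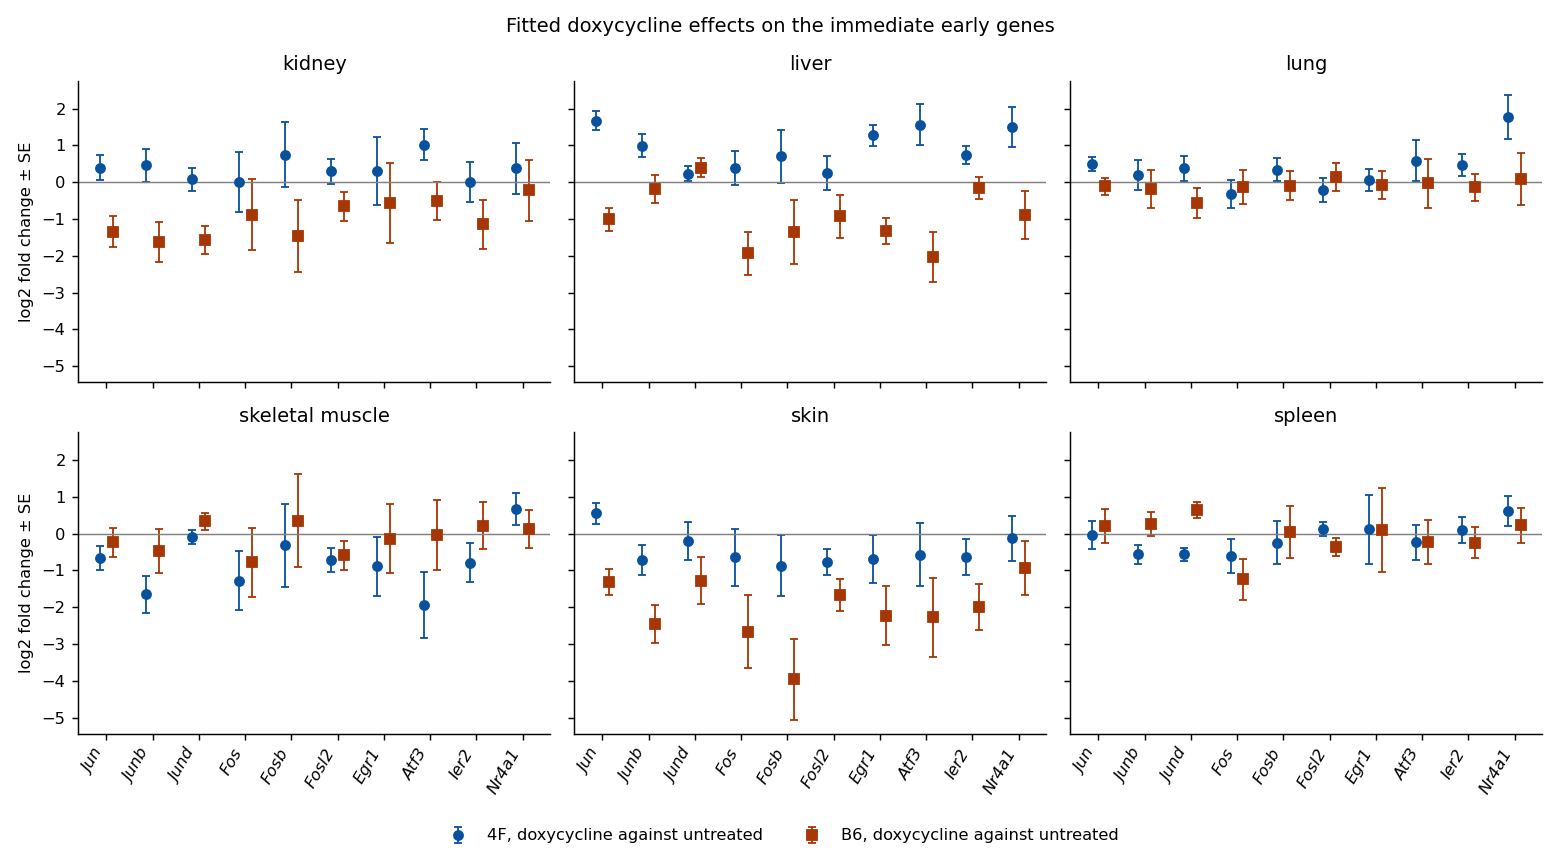
Fitted log2 fold change of doxycycline-treated against untreated libraries with its standard error (vertical axis) for each of the 10 genes (horizontal axis) in 6 tissues; blue circles are 4F (3 against 3 libraries) and brown squares B6 (2 against 2). In liver and kidney all 10 4F values are above 0, and in skin all 10 B6 values are below 0.

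In liver, the fitted effects of the members were above 0 in 4F and mostly below 0 in B6, and edgeR called none of them. Members varied together in part from library to library, so the counts below are not of independent genes. All 10 4F effects were above 0, with a median log2 fold change of 0.86 against 0.0049 for all genes, and 6 had an unadjusted p under 0.05 on the higher side, where 0.718% of all genes did. 9 of 10 B6 effects were below 0, with a median of -0.97 against -0.084 for all genes, and 4 had an unadjusted p under 0.05 on the lower side, against 7.64% of all genes. The 3 treated 4F libraries lay above the 3 untreated ones for 4 members, against 5.46% of all genes. The 2 treated B6 libraries lay below the untreated ones for 4 members and above for 1 (Jund), against 16.1% and 15.1% of all genes. Jun, Egr1 and Atf3 lay above in 4F and below in B6, as did 0.939% of all genes.

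Jun in 4F held 97.6, 77.4 and 119 CPM with doxycycline and 33.1, 23.9 and 36.3 CPM without it. In B6 the Jun values were 36.2 and 42.5 CPM with doxycycline and 65.6 and 92.3 CPM without it. The 4F arms did not overlap, and nor did the B6 arms, which stood in the opposite order. The log2 fold change was 1.67 ± 0.26 in 4F (unadjusted p 0.000258, edgeR adjusted p 1, DESeq2 adjusted p 0.000522) and -1.01 ± 0.31 in B6 (edgeR adjusted p 0.5). Junb in 4F held 60.8, 92.1 and 139 CPM with doxycycline and 54.3, 47.3 and 41.01 CPM without it, without overlap (0.98 ± 0.31). In B6 the Junb values were 126 and 169 CPM with doxycycline and 213 and 122 CPM without it, overlapping and above all 3 untreated 4F libraries (-0.18 ± 0.38).

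Fos in 4F held 8.21, 12.5 and 20.1 CPM with doxycycline and 15.95, 5.84 and 8.40 CPM without it, with overlap (0.38 ± 0.47). In B6 the Fos values were 9.44 and 20.2 CPM with doxycycline and 42.2 and 70.96 CPM without it, without overlap (-1.93 ± 0.59). The difference of the Fos effects was 2.31 ± 0.75 (edgeR adjusted p 0.494). Egr1 in 4F held 34.9, 55.7 and 90.2 CPM with doxycycline and 26.9, 26.3 and 18.5 CPM without it, without overlap (1.28 ± 0.28). In B6 the Egr1 values were 60.8 and 52.02 CPM with doxycycline and 176 and 106 CPM without it, without overlap in the opposite order (-1.32 ± 0.35, or -0.79 without untreated replicate 1).

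Atf3 in 4F held 5.94, 9.75 and 14.8 CPM with doxycycline and 5.21, 2.24 and 2.50 CPM without it (1.56 ± 0.55). In B6 the Atf3 values were 3.26 and 3.57 CPM with doxycycline and 5.63 and 22.6 CPM without it (-2.04 ± 0.68). Neither pair of arms overlapped, and the orders were opposite. The highest B6 value is that of untreated replicate 2, the library rich in macrophage transcripts, and without it the B6 effect on Atf3 was -0.71. Ier2 in 4F held 44.6, 89.5 and 72.9 CPM with doxycycline and 42.4, 50.6 and 29.1 CPM without it (0.74 ± 0.25), and in B6 46.7 and 52.8 CPM with doxycycline and 71.7 and 40.1 CPM without it (-0.17 ± 0.30). Nr4a1 in 4F held 12.6, 23.8 and 44.8 CPM with doxycycline and 12.8, 5.50 and 7.80 CPM without it (1.51 ± 0.54), and in B6 7.86 and 19.9 CPM with doxycycline and 33.7 and 17.9 CPM without it (-0.90 ± 0.65). For both genes the lowest treated 4F library lay within the untreated range, and the B6 arms overlapped.

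The 4F effect minus the B6 effect was above 0 for 9 of 10 members in liver, with a median of 2.18 against 0.047 for all genes. 7 members had an unadjusted p under 0.05 on that side, against 8.33% of all genes. It was 2.67 ± 0.41 for Jun (edgeR adjusted p 0.494, DESeq2 adjusted p 0.000627) and 2.60 ± 0.45 for Egr1 (edgeR adjusted p 0.494, DESeq2 adjusted p 0.00549). For Atf3 it was 3.61 ± 0.88 (edgeR adjusted p 0.494, DESeq2 adjusted p 0.0602), or 2.26 without untreated B6 replicate 2.

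Other measures of the liver libraries moved along with these differences. The summed level of 5 macrophage markers was 447 to 1081 CPM in treated 4F livers and 232 to 342 CPM in untreated ones. The 5 hepatocyte markers summed to 67739 to 91335 CPM in treated 4F livers and 90207 to 132459 CPM in untreated ones. In B6 livers the macrophage sum was 249.6 to 319 CPM with doxycycline and 216 to 3793 CPM without it. The hepatocyte sum there was 114949 to 153506 CPM with doxycycline and 32529 to 130313 CPM without it, and none of these 10 markers was at 0 in any arm. The GC index was 0.14 to 0.22 in treated B6 livers and -0.39 to -0.22 in untreated ones. As it did not overlap between these arms, its part and that of doxycycline cannot be told apart in B6 livers. With the index as a covariate the B6 effects were 0.56 for Jun, 0.68 for Fos and 2.49 for Atf3, all above 0, and the 4F effects were 2.32 for Jun, 3.44 for Atf3 and 0.077 for Ier2. The differences of the effects were then 1.76 for Jun, 0.83 for Fos and 0.95 for Atf3. The part of cell makeup in these values was not tested.

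**Figure D5:**
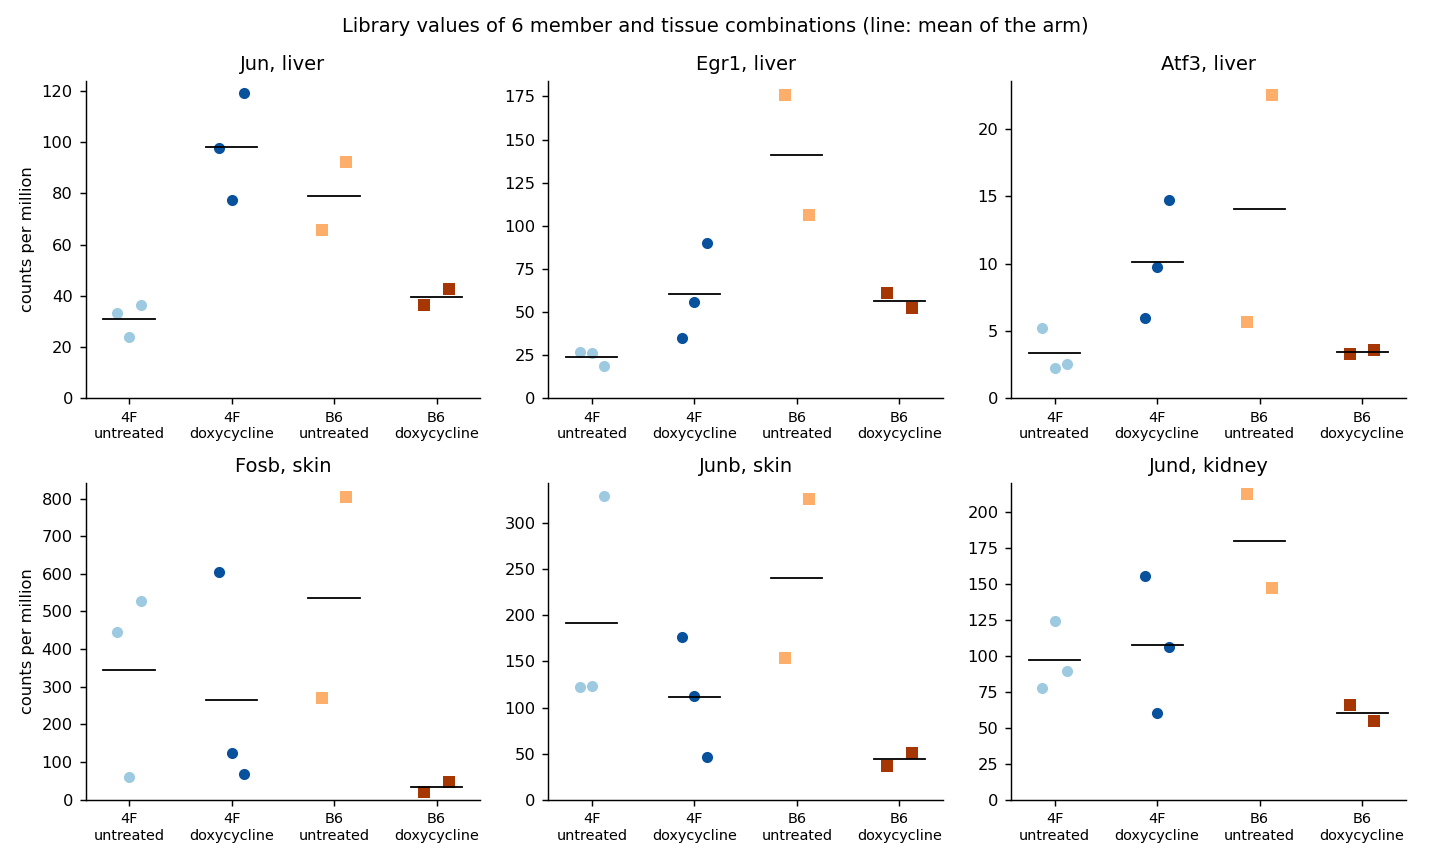
CPM (vertical axis) in each library of the 4 arms (horizontal axis; 3 libraries per 4F arm, 2 per B6 arm) for Jun, Egr1 and Atf3 in liver, Fosb and Junb in skin and Jund in kidney; the line is the arm's mean. Treated 4F livers lie above untreated ones for the 3 liver genes, and treated B6 libraries lie below untreated ones in all 6 panels.

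In skin, all 10 members were lower in treated than in untreated B6 mice, with no overlap between the arms for any of them, while 26.4% of all genes also lay wholly lower. The median B6 log2 fold change was -2.11 against -0.069 for all genes, and 7 members had an unadjusted p under 0.05 on the lower side, against 3.28% of all genes. In 4F skin, 9 of 10 effects were below 0, with a median of -0.64 against -0.07 for all genes. Of the members, Fosl2 had treated 4F libraries wholly below the untreated ones and Jun wholly above, against 5.9% and 6.63% of all genes.

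Jun in B6 skin held 98.9 and 143 CPM with doxycycline and 299.96 and 302 CPM without it (-1.32 ± 0.36). In 4F skin Jun held 315, 348 and 333 CPM with doxycycline and 284, 147 and 253 CPM without it (0.54 ± 0.29). The arms thus stood in opposite order in the 2 genotypes, as for 0.511% of all genes, and the difference of the effects was 1.86 ± 0.46 (edgeR adjusted p 1, DESeq2 adjusted p 0.0692). Leaving out untreated replicate 1 moved the 4F value to 0.82, and leaving out untreated replicate 2 moved it to 0.28. Junb in B6 skin held 36.8 and 50.6 CPM with doxycycline and 154 and 326 CPM without it (-2.46 ± 0.51, unadjusted p 0.00173, edgeR adjusted p 0.63, DESeq2 adjusted p 0.0104). In 4F skin Junb held 177, 112 and 45.98 CPM with doxycycline and 122, 123 and 329 CPM without it, with overlap (-0.72 ± 0.40).

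Fos in B6 skin held 84.7 and 316 CPM with doxycycline and 992 and 1564 CPM without it (-2.67 ± 0.99). In 4F skin Fos held 1102, 433 and 271 CPM with doxycycline and 1239, 177 and 1039 CPM without it (-0.65 ± 0.78), so each 4F arm spanned low and high libraries. Fosb in B6 skin held 20.6 and 48.4 CPM with doxycycline and 269.9 and 803 CPM without it (-3.96 ± 1.10, edgeR adjusted p 0.63, DESeq2 adjusted p 0.0208). This was the largest fitted effect among the 60 combinations in either genotype. In 4F skin Fosb held 606, 123 and 69.1 CPM with doxycycline and 446, 61.4 and 527 CPM without it, again with overlap (-0.88 ± 0.83). Fosl2 in 4F skin held 124, 63.6 and 91.7 CPM with doxycycline and 146, 147 and 169 CPM without it (-0.76 ± 0.35). In B6 skin Fosl2 held 47.8 and 54.2 CPM with doxycycline and 90.9 and 235 CPM without it (-1.68 ± 0.44, or -0.84 without untreated replicate 2). Fosl2 was thus the member whose treated libraries lay below the untreated ones in both genotypes.

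Egr1 in B6 skin held 126 and 215 CPM with doxycycline and 591 and 1007 CPM without it (-2.23 ± 0.81), and in 4F skin 699, 341 and 112 CPM with doxycycline and 780.5, 213 and 609 CPM without it (-0.70 ± 0.65). Ier2 in B6 skin held 27.1 and 49.6 CPM with doxycycline and 139 and 164 CPM without it (-1.98 ± 0.63), and in 4F skin 100.4, 116 and 31.1 CPM with doxycycline and 135, 76.6 and 187 CPM without it (-0.64 ± 0.50). For both genes the 4F arms overlapped while the B6 arms did not. The B6 skin arms also differed in other measures. The 5 skeletal muscle markers summed to 79269 to 92588 CPM in treated and 54029 to 62990.3 CPM in untreated B6 skin, and the 5 macrophage markers to 123 to 189 and 319 to 344 CPM. Mitochondrial genes took 8.16 to 8.39% of counts in treated and 3.17 to 6.31% in untreated libraries, and the GC index was -0.46 to -0.21 and 0.032 to 0.10. None of the 10 markers was at 0 in either arm, and the part of these measures in the lower member levels was not tested. With the GC index as a covariate the B6 effects were -3.78 for Fos, -5.06 for Fosb and -2.57 for Junb.

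In kidney, all 10 4F effects were above 0 and all 10 B6 effects were below 0. The medians were 0.34 in 4F and -1.02 in B6, against -0.0093 and -0.01 for all genes. In B6, 4 members lay wholly lower in treated libraries, against 19.6% of all genes. The 3 Jun family genes had an unadjusted p under 0.05 on the lower side, against 3.13% of all genes. Jun in B6 kidney held 52.8 and 92.02 CPM with doxycycline and 195 and 173 CPM without it (-1.34 ± 0.43), and in 4F kidney 73.1, 63.4 and 124 CPM with doxycycline and 97.4, 43.9 and 56.9 CPM without it (0.39 ± 0.35). Junb in B6 kidney held 36.7 and 92.1 CPM with doxycycline and 252 and 143.9 CPM without it (-1.62 ± 0.54, or -2.43 without treated replicate 2), and in 4F kidney 42.02, 35.4 and 80.9 CPM with doxycycline and 28.8, 36.8 and 52.02 CPM without it (0.46 ± 0.45). For both genes the untreated B6 kidneys held the highest values of the tissue and the 4F arms overlapped. Jund in B6 kidney held 66.01 and 54.4 CPM with doxycycline and 212 and 147 CPM without it (-1.58 ± 0.38, unadjusted p 0.00302, edgeR adjusted p 0.988, DESeq2 adjusted p 0.033). In 4F kidney Jund held 156, 59.98 and 106 CPM with doxycycline and 77.8, 124 and 89.6 CPM without it, with overlap (0.074 ± 0.31).

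Atf3 in 4F kidney held 3.33, 10.9 and 15.04 CPM with doxycycline and 6.37, 3.69 and 2.89 CPM without it (1.02 ± 0.43), and in B6 kidney 2.60 and 7.81 CPM with doxycycline and 7.52 and 7.43 CPM without it (-0.52 ± 0.51), with overlap in both genotypes. Beside the B6 differences, the 5 neutrophil markers summed to 4.58 to 10.97 CPM in treated and 45.3 to 93.3 CPM in untreated B6 kidneys, and the 5 adipocyte markers to 136 to 192 and 297 to 442 CPM. None of these 10 markers was at 0 in either arm. The GC index was -0.36 to -0.16 and 0.035 to 0.071 in these arms. The part of these measures in the B6 differences was not tested. With the index as a covariate the Jund effect was -1.34. The index did not overlap between the B6 arms, so its part and that of doxycycline cannot be told apart. With no filter on low counts, edgeR called Jun, Junb, Jund, Fos, Fosb, Fosl2 and Ier2 in B6 kidney, where it called 1.44% of all genes, and Atf3 in 4F kidney, where it called 0.971%.

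In skeletal muscle, 9 of 10 4F effects were below 0, with a median of -0.76 against -0.036 for all genes, and Nr4a1 was the exception. Junb, Fosl2 and Ier2 had treated 4F libraries wholly below the untreated ones, against 4.01% of all genes. Junb in 4F muscle held 8.33, 7.10 and 13.1 CPM with doxycycline and 49.3, 21.5 and 21.3 CPM without it (-1.66 ± 0.51, unadjusted p 0.0123, edgeR adjusted p 0.54, DESeq2 adjusted p 0.0747). Without untreated replicate 3, the macrophage-rich library, this fold change was -1.78. In B6 muscle Junb held 16.7 and 48.7 CPM with doxycycline and 33.9 and 56.9 CPM without it (-0.48 ± 0.60). Fosl2 in 4F muscle held 24.1, 14.96 and 18.02 CPM with doxycycline and 28.1, 32.1 and 32.7 CPM without it (-0.72 ± 0.33), and in B6 muscle 14.1 and 22.1 CPM with doxycycline and 15.9 and 38.7 CPM without it (-0.59 ± 0.40). Ier2 in 4F muscle held 5.45, 8.08 and 7.86 CPM with doxycycline and 17.4, 10.9 and 9.10 CPM without it (-0.80 ± 0.53), and in B6 muscle 9.68 and 35.04 CPM with doxycycline and 28.4 and 10.1 CPM without it (0.22 ± 0.64). The B6 arms overlapped for every member but Jund, which was higher in treated libraries, as were 22.7% of all genes. The GC index was 0.081 to 0.37 in these treated and -0.48 to -0.25 in the untreated B6 libraries, and its part in the Jund levels was not tested.

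In lung, 8 of 10 4F effects were above 0, with a median of 0.36 against -0.022 for all genes, while the B6 median was -0.10. Nr4a1 in 4F lung held 223, 149 and 492 CPM with doxycycline and 127, 32.4 and 90.1 CPM without it, without overlap, as for 6.93% of all genes. The Nr4a1 effect was 1.78 ± 0.60 (edgeR adjusted p 0.737), or 1.08 without treated replicate 3, which held the highest value. The lowest value was that of untreated replicate 2, the lung library with skeletal muscle transcripts, and the effect was 1.31 without it. In B6 lung Nr4a1 held 178 and 114 CPM with doxycycline and 106 and 167 CPM without it, with overlap (0.096 ± 0.71). Jun in 4F lung held 386, 236 and 293 CPM with doxycycline and 169, 223 and 249 CPM without it (0.50 ± 0.19), and 1 treated library lay within the untreated range. In B6 lung Jun held 271 and 247 CPM with doxycycline and 269 and 289.6 CPM without it (-0.11 ± 0.24). The treated B6 libraries lay wholly below the untreated ones for Jund alone among the members, against 9.8% of all genes. The GC index was 0.086 to 0.36 in treated and -0.53 to -0.20 in untreated 4F lungs, and with it as a covariate the Nr4a1 effect was 2.03.

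In spleen, the members' medians were -0.14 in 4F and 0.076 in B6. Jund in 4F spleen held 119.9, 56.4 and 60.2 CPM with doxycycline and 85.6, 81.7 and 189 CPM without it, with overlap. The male library was the highest of each 4F arm, and with sex in the model the effect was -0.57 ± 0.17. In B6 spleen Jund held 204 and 152 CPM with doxycycline and 124 and 105 CPM without it (0.64 ± 0.21, or 0.41 without treated replicate 1). The treated B6 libraries lay wholly above the untreated ones for Jund and below for Fos, against 19.9% and 17.9% of all genes. The difference of the Jund effects was -1.21 ± 0.27 (edgeR adjusted p 0.553, DESeq2 adjusted p 0.0799). The GC index, which Jund followed across libraries, was 0.32 to 0.33 in treated and 0.024 to 0.13 in untreated B6 spleens, and with it as a covariate the B6 effect on Jund was 0.68.

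The other genes of the response were read from 4 lists. Of 24 other immediate early genes, none passed edgeR's adjusted p of 0.05 in any tissue. Klf4 and Myc of this list are also encoded by the cassette. Of 141 combinations with a tissue, 13 had an unadjusted p under 0.05 in 4F and 26 in B6, against 6.46% and 5.55% of all combinations of gene and tissue. DESeq2 called 2 in 4F (Egr2 and Fosl1 in skin) and 3 in B6 (Cebpb, Cebpd and Rhob in kidney), against 0.562% and 0.249% of all combinations. In B6 skin 21 of 24 were lower (median -1.47), and in B6 kidney 21 of 23 (median -0.71). In 4F liver 17 of 23 were higher (median 0.30). The medians of all genes are those given above with the members of these tissues. Rhob held 72.7 ± 8.42 against 138 ± 17.1 CPM in treated and untreated B6 kidney (SD, n = 2 each; -0.93 ± 0.15), and Cebpb, a leucine zipper factor of the acute phase, 7.50 ± 1.15 against 29.4 ± 12.4 CPM (-1.97 ± 0.46). Btg2 held 134 ± 61.4 against 42.6 ± 6.48 CPM in 4F liver (SD, n = 3 each; 1.64 ± 0.38), and Myc, which the cassette also encodes, 25.4 ± 12.9 against 8.53 ± 1.90 CPM (1.42 ± 0.35). In 4F skin, Egr2 held 29.2 ± 21.6 against 83.4 ± 19.9 CPM (-1.75 ± 0.56) and Fosl1, the Fos relative Fra-1, 0.319 ± 0.340 against 1.68 ± 1.51 CPM (-2.51 ± 0.62).

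Of 15 feedback inhibitors, none passed edgeR's adjusted p of 0.05. Of 90 combinations, 12 had an unadjusted p under 0.05 in 4F and 17 in B6, against the same 6.46% and 5.55%. DESeq2 called 2 in 4F (Dusp4 in skeletal muscle and Nab2 in skin) and 3 in B6 (Ppp1r15a in spleen, and Socs3 and Tnfaip3 in skin), against 0.562% and 0.249%. All 15 were lower in treated B6 skin (median -1.26), in treated 4F skin (median -0.51) and in treated 4F skeletal muscle (median -0.54), where the medians of all genes were -0.069, -0.07 and -0.036. In B6 skin, Zfp36 held 60.01 ± 8.91 against 298 ± 68.2 CPM (-2.31 ± 0.66) and Socs3, an inhibitor of cytokine signalling, 29.8 ± 3.20 against 126 ± 83.4 CPM (-2.08 ± 0.44). Nab2, the co-repressor that binds Egr1, held 13.6 ± 5.98 against 31.5 ± 9.80 CPM in 4F skin (-1.27 ± 0.27), and Dusp4 held 1.04 ± 0.407 against 5.02 ± 3.52 CPM in 4F skeletal muscle (-2.16 ± 0.46). The upstream kinases and factors, such as Srf, Creb1 and the MAP kinases, stayed nearer 0. None of 16 passed edgeR's test, and 5 of 96 combinations had an unadjusted p under 0.05 in 4F and 5 in B6, near or below the 6.46% and 5.55% of all combinations. DESeq2 called 1 in 4F (Mrtfb in skin) and 0 in B6, and the list medians in B6 skin and 4F liver were -0.098 and 0.039. Of 11 other leucine zipper partners, such as Atf2, Batf and Jdp2, none passed either test, and 3 and 5 of 66 combinations had an unadjusted p under 0.05 in 4F and B6, against 6.46% and 5.55%. The same list medians were 0.027 and 0.20.

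Some members share their place with another gene. Junb overlaps Prdx2, a peroxiredoxin gene on the opposite strand, which held 160223 counts over the 60 libraries against 185468 for Junb. The kit marks strand, but the strand setting of the counting is not given in the sources used here, so reads of this pair may not be told apart. Jun overlaps the antisense gene Junos, with 1619 counts against 246352 for Jun, and Jund overlaps the antisense gene Gm11175, with 769 against 162394.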

How the data were processed

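RNA of 6 tissues was read from TruSeq Stranded Total RNA libraries of RNeasy-extracted RNA, per the labels' protocols. The authors deposited raw counts for 52636 Ensembl genes, made on GRCm38 per the submitters' processing notes. The sources used here do not name the aligner, the counting program, the annotation or its strand setting. Groups and sex came from the labels, which pair no libraries. Each tissue was fitted with edgeR 4.0.16 in R 4.3.3, on 10 libraries, with 4 arms and sex, filterByExpr (minimum count 10 and total count 15), TMM and robust quasi-likelihood, leaving 5 residual degrees of freedom. P-values were adjusted by Benjamini-Hochberg over all genes tested in the tissue, with calls at 0.05. Tissue pairs came from 1 such fit of 60 libraries. DESeq2 1.42.0 was an alternative, beside its size factors in edgeR, no filter, no sex term, 1 genotype alone and each library left out. After the values were seen, leaving out 6 libraries and a GC covariate were added. Log2 CPM for co-variation had a prior count of 2. The steps were tested on simulated data. The members and lists were chosen with earlier results of these data known. Library values are given for a member and tissue where the 4F arms do not overlap, a contrast is called or any unadjusted p is under 0.05, which holds for 24 of 60 combinations; list genes are those called by DESeq2 or among the 3 with the smallest p. Counts limit precision at low levels, such as Fosb in liver.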

Additional observations from a re-analysis of the deposited data

Results flagged for a closer look

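In 4 combinations of member and tissue, every treated 4F library lay above every untreated one while every treated B6 library lay below every untreated one, so the doxycycline effects of the genotypes pointed in opposite directions. 0.939% of all genes in liver and 0.511% in skin did the same. The 4F effect minus the B6 effect was 2.67 for Jun in liver, 2.60 for Egr1 in liver, 3.61 for Atf3 in liver and 1.86 for Jun in skin, all log2. The difference itself was tested with edgeR, whose adjusted p was 0.494, 0.494, 0.494 and 1, so none passed, and DESeq2 called the first and the second (adjusted p 0.000627 and 0.00549). With the GC index as a covariate the B6 liver effects were above 0 for Jun (0.56) and Atf3 (2.49), and the differences were 1.76 for Jun and 0.95 for Atf3. The index did not overlap between the B6 liver arms, so its part and that of doxycycline cannot be told apart. Without the macrophage-rich untreated B6 liver replicate 2, the Atf3 difference was 2.26. The 4F and B6 arms differ in age, sex and length of treatment as well as in the 2 transgenes, and these cannot be told apart.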

How the results depend on the processing

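The count of members called by edgeR was 0 in each contrast. With no filter on low counts it was 1 in 4F, 7 in B6 and 8 for the difference, all in kidney. There edgeR called 0.971%, 1.44% and 1.25% of all genes. With DESeq2 the count of members was 1, 3 and 2, against 0.562%, 0.249% and 0.147% of all combinations it tested. Leaving out each library in turn gave 0 in 4F, 0 to 4 in B6 and 0 to 5 for the difference, with the highest counts without untreated B6 liver replicate 1. Member differences between tissues numbered 90 with all libraries, 56 with B6 libraries only and 87 to 92 with DESeq2's size factors, no filter or 4F libraries only. With the GC index as a covariate, B6 liver effects turned to 0.56 for Jun, 0.68 for Fos and 2.49 for Atf3; the cause was not tested, and no member was called. Of 742 alternative values of 45 single fold changes, 718 kept their direction and side of the threshold. A further 21 passed it and kept their direction, and these 3 turned. As none of the 45 passed it at first, any value that kept its direction and failed again counts among the 718. Of the 742, 26 moved by over 1.5 times, 9 of them with the GC index as a covariate. No Fos relation passed adjustment with a prior count of 0.5, with 4F libraries only or with deviations from the tissue mean. With 4F libraries only there were 36 arrangements and the lowest exact permutation p was 0.0278. Failing adjustment there does not show a lack of co-variation. DESeq2's size factors moved the median of all genes by -0.0519 to 0.0403 log2. With the 6 libraries that stood apart left out, 1 of them from skin, edgeR called 692 genes (3.79%) in 4F skin. For the difference in skin it called 7 genes, and no member was called in skin. No paired analysis was possible because the replicate numbers follow the order of the samples and no label ties libraries across arms. Each B6 arm had 2 libraries and each 4F arm 3, and low counts of Fosb in liver limit its precision.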
